A study of Mus musculus with 6 samples.

Results

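The Kv1 family (Shaker type) of voltage-gated potassium channels was described across 3 nuclei of the mouse auditory brainstem before and after the onset of hearing. The set was fixed by gene name, as 6 genes of pore-forming alpha subunits (Kcna1 to Kcna6) and 3 genes of cytoplasmic beta subunits (Kcnab1 to Kcnab3), and makes 9 of the 18193 genes that a probe set of the array names alone. These 9 genes had 21 probe sets, and 0 further probe sets name a member together with another gene. A gene is represented by the probe set with the highest mean over all arrays, and its other probe sets serve as a check. The series holds 6 Affymetrix whole-genome mouse expression arrays, with 1 per nucleus at postnatal day 3 (P3) and 1 at postnatal day 14 (P14). The nuclei are VCN (the ventral part of the cochlear nucleus, where auditory nerve fibres end), LSO (lateral superior olive) and MNTB (medial nucleus of the trapezoid body, a relay of inhibition). All animals were untreated male C57BL/6J mice, with 6 pooled per array at P3 and 3 pooled per array at P14, and 20 ng of RNA was amplified for each array. Because no nucleus and age was measured again, the spread behind each test is how far a difference varied between nuclei or ages, and the p-values say nothing of the spread between animals. The test also draws each gene's spread toward that of all tested genes, and the standard errors below include this adjustment.

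Kv1 channels are tetramers of alpha subunits that open close to the resting potential and carry the low-threshold potassium current of auditory neurons. In bushy cells of the VCN and in principal cells of the MNTB this current shortens the membrane response and limits firing to the onset of an input, which serves precise timing. The channels also sit along axons, beside the nodes of Ranvier, and beta subunits bind to their cytoplasmic face, where some members speed inactivation and others affect transport to the membrane.

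The 6 arrays had medians between 6.27 and 6.31 on the log2 scale of the deposited values. The labelled tissues were set against their markers. Atoh7, a transcription factor of VCN bushy cells, stood at 9.46 and 11.07 in VCN at P3 and P14 and at 5.92 to 7.93 on the other 4 arrays, and Slc6a5, the glycine transporter of glycinergic neurons such as those of MNTB, at 12.50 and 13.02 in MNTB and at 10.74 to 12.22 elsewhere. Of the other glycinergic markers, Glra1 was lowest in MNTB at P3 (9.71, beside 10.62 in VCN and 10.11 in LSO). The VCN array of P14 stood apart for markers of neighbouring tissue: Ttr of the choroid plexus was at 12.58 there and at 6.61 to 6.93 on the other 5 arrays, and Gabra6 of granule cells, which the cochlear nucleus itself also holds, was at 7.97 there and at 3.26 to 4.37 on the others. The mean log2 value of 6 neuronal markers was 11.74 to 11.86 at P3 and 11.10 to 11.50 at P14, that of 5 measured myelin markers 8.07 to 10.22 and 12.47 to 12.64, and the difference between the 3' and 5' probe sets of Gapdh, a sign of RNA quality, 1.21 to 1.41 and 1.06 to 1.11. Endothelial markers were higher at P14 in all 3 nuclei for 4 of 4 genes, microglial ones for 3 of 5 and astrocyte ones for 2 of 4. The neuronal list was mixed. Snap25 and Eno2 were higher at P14 in all 3 nuclei, and Syt1, Rbfox3, Tubb3 and Stmn2 lower. Myelin, endothelial and microglial markers, the neuronal mean, RNA quality and pool size thus moved with age, and their part in the age differences below was not tested. In such tissue, fewer cells of a type and less RNA per cell cannot be told apart.

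The genes lie partly in clusters. In RefSeq (assembly GRCm38.p6), Kcna5, Kcna1 and Kcna6 are consecutive protein-coding genes on chromosome 6, and Kcna3 is followed by Kcna2 and Kcna10 on chromosome 3. The RefSeq promoter table held 11 start sites for 7 members, and Kcna1 and Kcnab3 were not matched in it. The 250 bases before the start site are shown for Kcna2 and Kcna3, adjacent genes of which the first rose with age and the second did not pass the test, and for the 3 start sites of Kcnab1, the tested member whose age change varied most between nuclei. All are from build GRCm38.p6 on the plus strand, at chr3:107101317-107101566 (Kcna2), chr3:107035912-107036161 (Kcna3) and chr3:64948962-64949211, chr3:65108764-65109013 and chr3:65187853-65188102 (Kcnab1, start sites 1, 2 and 3). Capitals mark GGGCGG (a GC box) and CACGTG (an E-box) on either strand.
Kcna2: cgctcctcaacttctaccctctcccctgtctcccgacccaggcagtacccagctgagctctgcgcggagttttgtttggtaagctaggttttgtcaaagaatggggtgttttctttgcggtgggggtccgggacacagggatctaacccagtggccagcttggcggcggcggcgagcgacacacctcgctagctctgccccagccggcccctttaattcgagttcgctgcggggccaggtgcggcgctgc
Kcna3: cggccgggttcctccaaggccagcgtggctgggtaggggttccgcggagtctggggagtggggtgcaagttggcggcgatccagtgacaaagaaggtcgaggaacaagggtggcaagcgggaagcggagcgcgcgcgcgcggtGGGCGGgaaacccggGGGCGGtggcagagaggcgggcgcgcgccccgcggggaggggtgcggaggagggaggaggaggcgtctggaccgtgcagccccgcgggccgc
Kcnab1 start site 1: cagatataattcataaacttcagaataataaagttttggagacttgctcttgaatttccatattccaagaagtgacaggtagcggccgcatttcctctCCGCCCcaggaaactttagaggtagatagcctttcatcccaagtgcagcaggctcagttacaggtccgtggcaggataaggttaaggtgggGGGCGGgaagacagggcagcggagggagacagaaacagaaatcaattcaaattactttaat
Kcnab1 start site 2: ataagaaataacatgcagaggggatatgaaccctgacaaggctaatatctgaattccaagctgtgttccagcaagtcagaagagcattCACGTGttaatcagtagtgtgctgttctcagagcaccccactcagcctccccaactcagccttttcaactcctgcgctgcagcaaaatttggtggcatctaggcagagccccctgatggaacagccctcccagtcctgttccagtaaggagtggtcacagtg
Kcnab1 start site 3: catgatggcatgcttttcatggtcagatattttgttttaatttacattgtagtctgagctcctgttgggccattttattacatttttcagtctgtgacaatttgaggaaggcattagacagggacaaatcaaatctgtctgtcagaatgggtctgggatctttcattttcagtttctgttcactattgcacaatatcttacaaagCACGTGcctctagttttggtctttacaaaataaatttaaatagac

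The Kcna3 window held 31 CG dinucleotides and 74.4% G and C, and the Kcna2 window 18 and 62.4%, beside medians of 6 and 52.4% over 32851 RefSeq start sites. GGGCGG occurred at 2 places in the Kcna3 window and at 0 in that of Kcna2, and in 32.7% of all windows of this length. The start sites of Kcnab1 differed among themselves: site 1 had 2 matches to GGGCGG and 6 CG dinucleotides, whereas sites 2 and 3 had 2 and 1 CG dinucleotides and 1 match each to CACGTG, found in 6.02% of all windows. TATAAA (12.4% of all windows) and TGACGTCA (1.55%) had 0 matches in all 11 member windows. These are matches of letters, and binding was not measured. Both Kcnab1 probe sets have names ending in _a_at, which the maker gives to probe sets shared by several transcripts of a gene, so the values below do not tell the start sites apart.

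The first comparison asks which Kv1 genes changed between P3 and P14 in all 3 nuclei. Kcna1, Kcna2 and all 3 beta subunit genes rose in the fit, by 1.23 to 2.37 log2 units, or 2.35- to 5.16-fold. The second Kcnab1 probe set was at -0.14 in MNTB and did not pass (adjusted p = 0.0863 in a fit of every probe set, limma). None of the 8 tested members passed as lower at P14. Kcna3 was lower at P14 in VCN, LSO and MNTB (-1.44, -0.33 and -0.37) but did not pass (adjusted p = 0.0597, limma), and Kcna4 was lower mainly in VCN. Kcna6 moved little in its highest probe set and rose by 1.97 in another. Kcna5 was below the filter on low values. Tests were made with limma in an additive model of age and nucleus that used all 6 arrays, and p-values were adjusted over 12958 genes. Of all tested genes 41.0% passed at an adjusted p of 0.05, 23.4% higher and 17.7% lower at P14, beside 5 of 8 members higher and 0 of 8 lower (at an unadjusted p under 0.05, 6 of 8 members and 50.2% of all genes in either direction). The median change was 1.52 over the tested members and 0.03 over all tested genes. The count over all genes fell from 5317 to 3142 without the MNTB array of P3 and to 3176 without that of P14, whereas 5 members passed in each of the 6 fits without 1 array. These fits are not 6 separate checks. Leaving out either array of a nucleus drops that nucleus from the age difference and gives the same estimate.

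**Figure D1:**
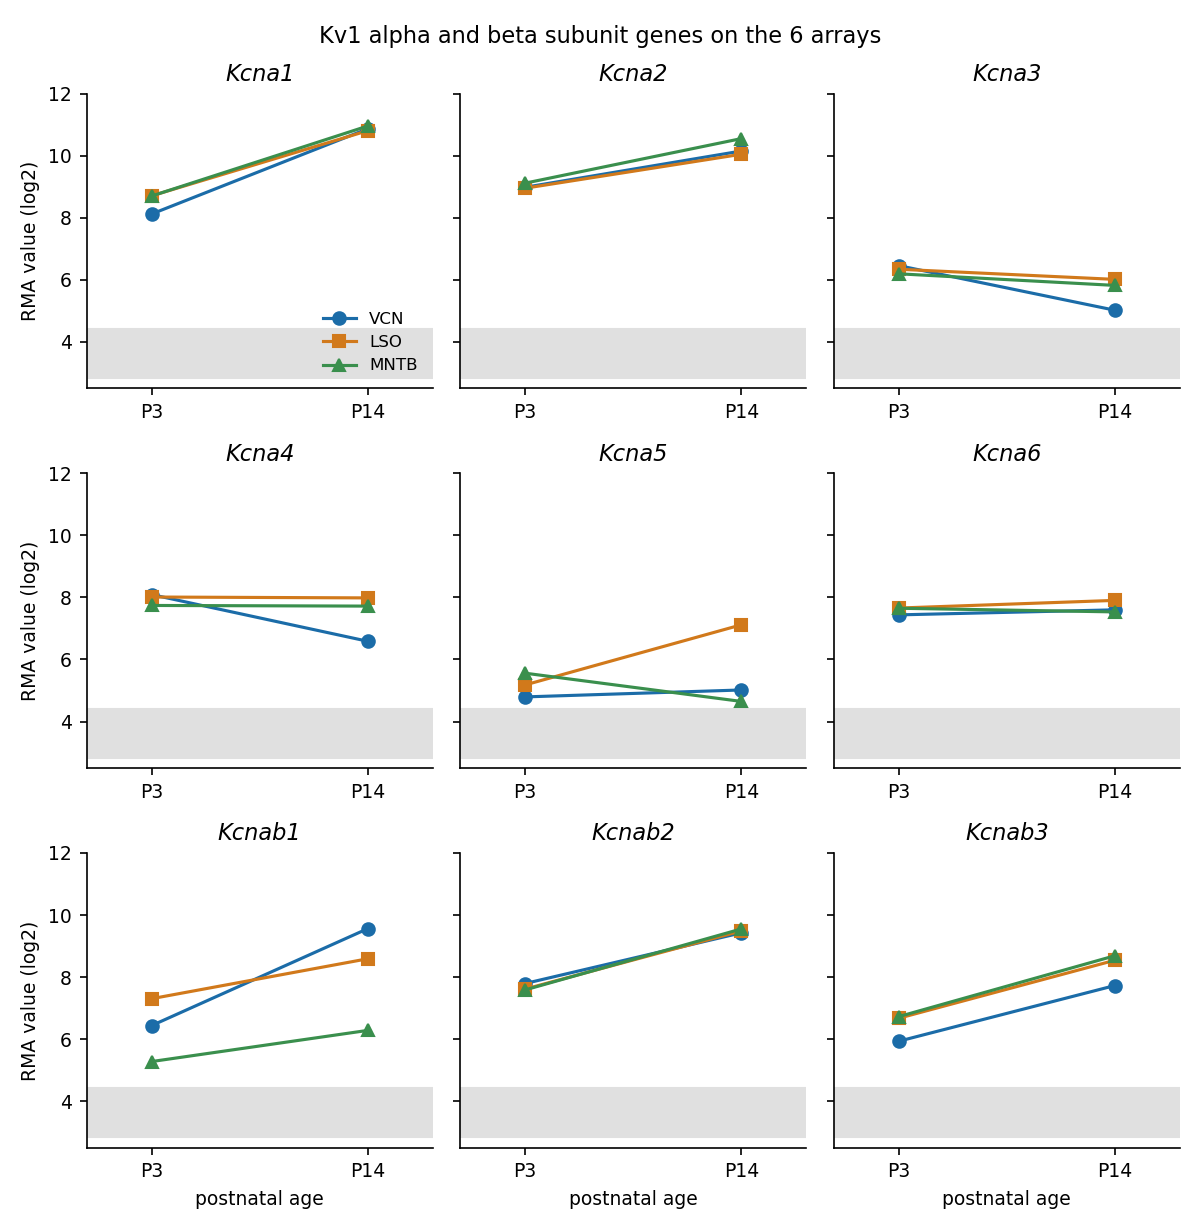
Log2 value of the probe set that represents each gene (y axis) at P3 and P14 (x axis), with a line for each nucleus and 1 array per point, and grey for the range of the TrpnX control probe sets (2.84 to 4.42). Kcna1, Kcna2, Kcnab2 and Kcnab3 are higher at P14 on every line, Kcnab1 fans out between nuclei, and Kcna3 and Kcna4 drop in VCN; heights are not comparable between genes, since each panel is another probe set.

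Kcna1 encodes Kv1.1, a main alpha subunit of the low-threshold current. At P3 it stood at 8.12 (VCN), 8.70 (LSO) and 8.70 (MNTB), and at P14 at 10.86, 10.80 and 10.95. All P14 values lay above all P3 values, and the VCN value, the lowest at P3, had joined the other nuclei at P14. The change was 2.37 ± 0.14 log2 units (moderated standard error of the fit, adjusted p = 0.000389 with limma), from 2.10 (LSO) through 2.26 (MNTB) to 2.75 (VCN). Its SD over 3 nuclei was 0.34. Of 12958 tested genes, 116 (0.895%) had a larger rise. Its probe sets 1437230_at and 1455785_at rose by 2.61 and 2.75, with VCN again lowest at P3, while 1442413_at stayed within the range of the TrpnX control probe sets (2.84 to 4.42), for a bacterial gene at background here, on all 6 arrays and gives no change.

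Kcna2 encodes Kv1.2, which assembles with Kv1.1 in many neurons. In the order VCN, LSO and MNTB, its values were 8.98, 8.95 and 9.11 at P3, and 10.15, 10.04 and 10.55 at P14. The ages did not overlap, and MNTB was highest at both. The change was 1.23 ± 0.10 log2 units (adjusted p = 0.000770, limma), from 1.09 in LSO to 1.44 in MNTB, and 4.33% of tested genes rose more. The rise was 1.47 in probe set 1440759_at and 1.27 in 1422197_at, both also highest in MNTB at each age. The fourth probe set, 1457911_at, lay at or below the range of the control sets on all 6 arrays.

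Kcnab2 and Kcnab3 encode beta subunits, and both rose. Kcnab2, the gene of Kvbeta2, a subunit known for its part in axonal targeting of Kv1 channels, stood at 7.79, 7.61 and 7.59 (VCN, LSO, MNTB) at P3 and at 9.43, 9.49 and 9.55 at P14. The P14 values lay within 0.13 of each other and all above those of P3. The change was 1.82 ± 0.11 log2 units (adjusted p = 0.000416, limma), with a range over nuclei that 54.1% of tested genes exceeded. Probe set 1416956_at gave 1.85, from 1.43 in LSO through 1.98 in MNTB to 2.14 in VCN. For Kcnab3 the P3 values were 5.93, 6.67 and 6.73 and the P14 values 7.73, 8.54 and 8.69, in the same order of nuclei. The change was 1.88 ± 0.12 (adjusted p = 0.000416, limma), with 1.79, 1.87 and 1.96 in VCN, LSO and MNTB, a range over nuclei that 83.4% of tested genes exceeded. VCN was the lowest nucleus at both ages. The second probe set, 1421790_a_at, rose by 1.52, from 1.20 in MNTB to 2.01 in LSO, and was also lowest in VCN at both ages. Its change was less even over nuclei, with an SD of 0.43 beside 0.08 in the first probe set.

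Kcnab1 encodes Kvbeta1, whose amino-terminal part can block the open pore and so inactivate the channel. VCN, LSO and MNTB stood at 6.44, 7.30 and 5.28 at P3, and at 9.56, 8.59 and 6.28 at P14. The ages overlap over nuclei, because MNTB at P14 lay below VCN and LSO at P3. The additive fit gave a rise of 1.81 ± 0.40 log2 units (adjusted p = 0.0155, limma), made of an 8.72-fold difference in VCN (3.12 log2 units), 2.44-fold in LSO (1.29) and 2.01-fold in MNTB. Its SD over 3 nuclei was 1.15, and its range over nuclei, 2.12, was exceeded by 0.671% of tested genes (median 0.35). Whether the rise differs between nuclei could not be tested with 1 array per nucleus and age. Without either VCN array the rise was 1.15. Without nucleus in the model it did not pass (adjusted p = 0.143, limma). Probe set 1448468_a_at had values of 5.77, 6.43 and 5.57 at P3 and 8.67, 7.55 and 5.42 at P14. Between ages VCN differed by 2.90, LSO by 1.12 and MNTB by -0.14, and the mean did not pass in a fit of every probe set (1.29 ± 0.51, adjusted p = 0.0863, limma), so that no higher value in MNTB at P14 was seen with it.

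**Figure D2:**
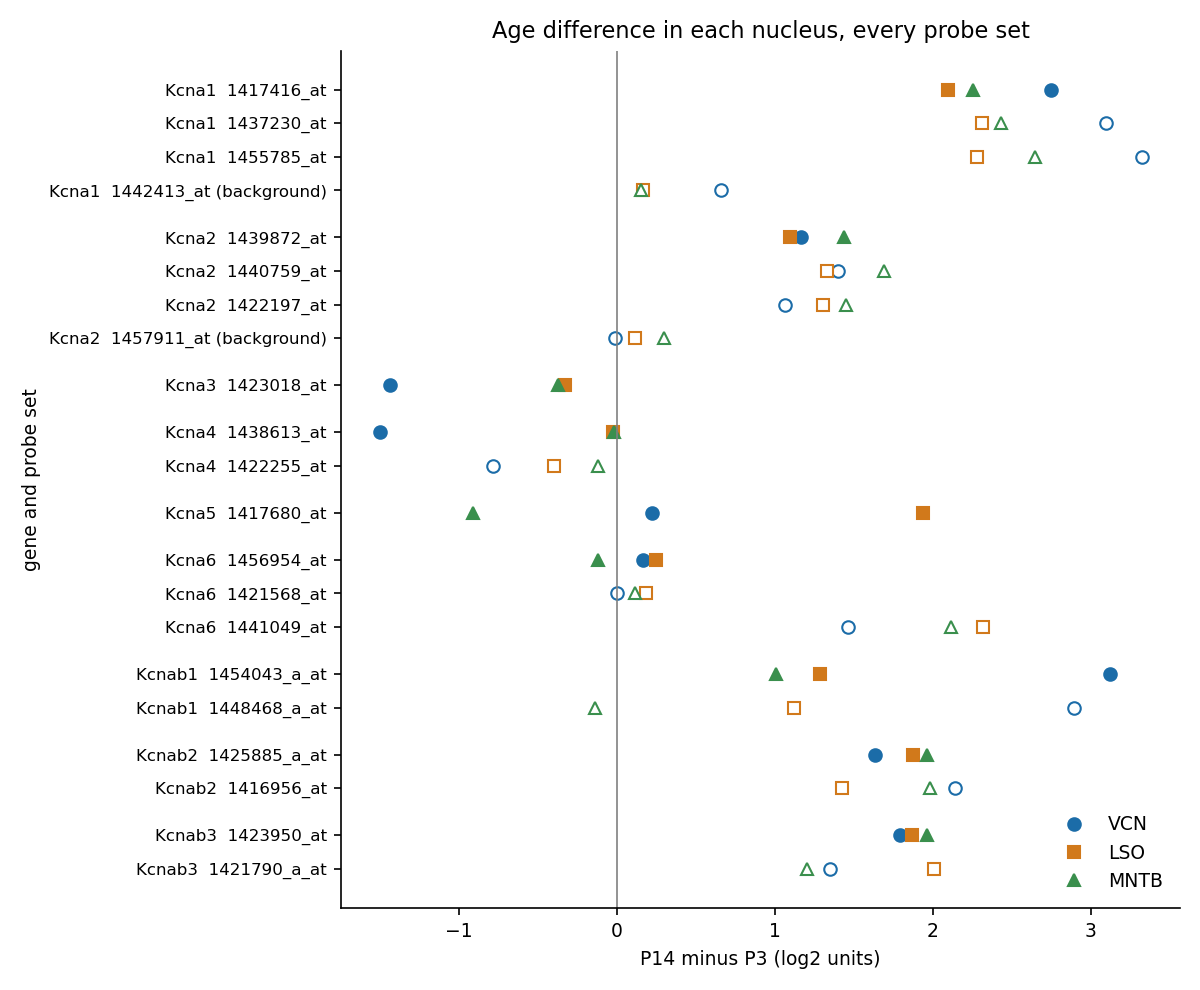
Difference between P14 and P3 (x axis, log2 units) in VCN (circles), LSO (squares) and MNTB (triangles) for each of the 21 probe sets (y axis), filled for the probe set that represents the gene; "background" marks the 2 probe sets that nowhere exceeded the control range. Probe sets of Kcna1, Kcna2, Kcnab2 and Kcnab3 above that range are to the right of 0 in each nucleus, while those of Kcna6 differ in size.

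Kcna3 and Kcna4 encode alpha subunits of inactivating currents, Kv1.3 with slow and Kv1.4 with fast inactivation. Kcna3 stood at 6.46, 6.34 and 6.19 (VCN, LSO, MNTB) at P3 and at 5.02, 6.01 and 5.82 at P14. Its P14 values lay below those of P3, but mostly so in VCN, where the difference was -1.44, beside -0.33 and -0.37. It did not pass (-0.71 ± 0.24, adjusted p = 0.0597, limma). Kcna4 was at 8.09, 8.01 and 7.74 at P3 and at 6.59, 7.98 and 7.72 at P14. In LSO and MNTB the ages thus differed by -0.03 and -0.02, and VCN at P14 was the lowest of the 6 arrays, with a difference of -1.50 from VCN at P3. The mean of -0.52 ± 0.31 did not pass (adjusted p = 0.224, limma), and without either VCN array it was -0.02. The second Kcna4 probe set, 1422255_at, below the filter, gave -0.79 in VCN, -0.40 in LSO and -0.12 in MNTB. The low values of both genes fall on the array with high Ttr and Gabra6. All 4 choroid plexus markers were highest on it, with a mean of 7.33 (5.22 to 5.53 on the others), as were 2 of 4 granule cell markers, with a mean of 8.87 (5.68 to 7.46 on the others). The choroid plexus mean rests mostly on Ttr. Folr1, Clic6 and Kl were at 6.26, 5.48 and 4.98 there and at most 5.52, 5.05 and 4.96 on the others. The part of those cells in the VCN values of Kcna3, Kcna4 and Kcnab1 was not tested.

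Kcna6 encodes Kv1.6, an alpha subunit sensitive to dendrotoxin like Kv1.1 and Kv1.2. In its highest probe set it stood at 7.44, 7.66 and 7.65 in VCN, LSO and MNTB at P3 and at 7.60, 7.90 and 7.53 at P14. These values overlap between ages, and the change was 0.10 ± 0.13 (adjusted p = 0.572, limma). Probe set 1421568_at gave the same mean change of 0.10 with values of 6.13 to 6.38. Probe set 1441049_at behaved otherwise. It stood at 4.89, 4.51 and 4.52 at P3, just above the control range, and at 6.35, 6.83 and 6.63 at P14. The rise was 1.97 ± 0.19 (adjusted p = 0.000824 in a fit of every probe set, limma). All P3 values of this probe set lay below the filter on low values. Its mean over all arrays, 5.62, reached that filter only through the P14 values. Its entry into the fit thus depended on the age at which it was higher, which limits what the p-value shows. The probe sets' places in the transcript were not used here. The 3 probe sets of Kcna6 thus differ in the size of the change and in whether it passed.

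Kcna5 encodes Kv1.5, a delayed rectifier subunit also found in heart and glia. Its only probe set stood at 4.79, 5.18 and 5.56 in VCN, LSO and MNTB at P3 and at 5.02, 7.12 and 4.65 at P14. The LSO array of P14 was thus 1.94 above that of P3, a 3.83-fold difference, whereas MNTB differed by -0.91. The mean of 0.42 ± 1.43 (SD, 3 nuclei) describes neither nucleus. The mean over arrays, 5.39, lay below the filter of 5.57, so it was not tested with the others. Fitted with no filter on low values it did not pass (adjusted p = 0.593, limma), and the single high array has no second array of its nucleus and age beside it.

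The second comparison asks where the 3 nuclei differed at both ages. In this fit 0 of 8 members passed for MNTB minus LSO, for MNTB minus VCN or for VCN minus LSO with limma, beside 0.162%, 0.602% and 0.370% of all tested genes. At an unadjusted p under 0.05 there were 2, 2 and 1 of 8 members, beside 6.80%, 9.53% and 8.98% of all tested genes. Kcnab1 was lowest in MNTB at both ages, with differences of -2.02 (P3) and -2.31 (P14) from LSO and of -1.16 and -3.28 from VCN. The fitted differences were -2.17 ± 0.49 against LSO (adjusted p = 0.370, limma) and -2.22 ± 0.49 against VCN (0.194). The spread in these fits holds the unequal age changes of Kcnab1 between VCN and the other nuclei. MNTB minus LSO, which was -2.17 as well when either VCN array (P3 or P14) was left out, then passed (adjusted p = 0.00598 and 0.00686, limma), and MNTB minus VCN passed without the VCN array of P3 (-3.21, 0.00400), when the P14 array with high Ttr and Gabra6 stands alone for VCN, but not without that of P14 (-1.23, 0.0686). In probe set 1448468_a_at MNTB was also lowest at both ages, with differences of -0.86 and -2.13 from LSO and of -0.21 and -3.24 from VCN. Between VCN and LSO the order of Kcnab1 turned with age, from -0.87 at P3 to 0.97 at P14.

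Kcnab3 was lower in VCN than in MNTB and LSO at both ages. Relative to VCN, MNTB was higher by 0.79 at P3 and 0.96 at P14 (0.88 ± 0.14, adjusted p = 0.0854, limma). The difference of VCN from LSO was -0.74 and -0.81 (-0.78 ± 0.14, adjusted p = 0.130, limma). In probe set 1421790_a_at MNTB minus VCN was 0.81 and 0.67, and VCN minus LSO was -0.25 at P3 and -0.91 at P14. MNTB minus LSO turned there from 0.56 to -0.24. Kcna2 was higher in MNTB than in LSO by 0.16 and 0.50 (0.33 ± 0.13, adjusted p = 0.700). Kcna1 differed between VCN and LSO by -0.59 at P3 and by 0.06 at P14. Kcnab2 differed between nuclei by -0.21 (MNTB minus VCN at P3) to 0.18 (VCN minus LSO at P3), and in probe set 1416956_at the latter was -0.58 and MNTB minus LSO at P3 -0.33. Kcna4 differed between VCN and LSO by 0.08 at P3 and by -1.40 at P14, and that contrast passed without the VCN array of P3 (adjusted p = 0.0325, limma), when the VCN array of P14 stands alone for its nucleus.

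**Figure D3:**
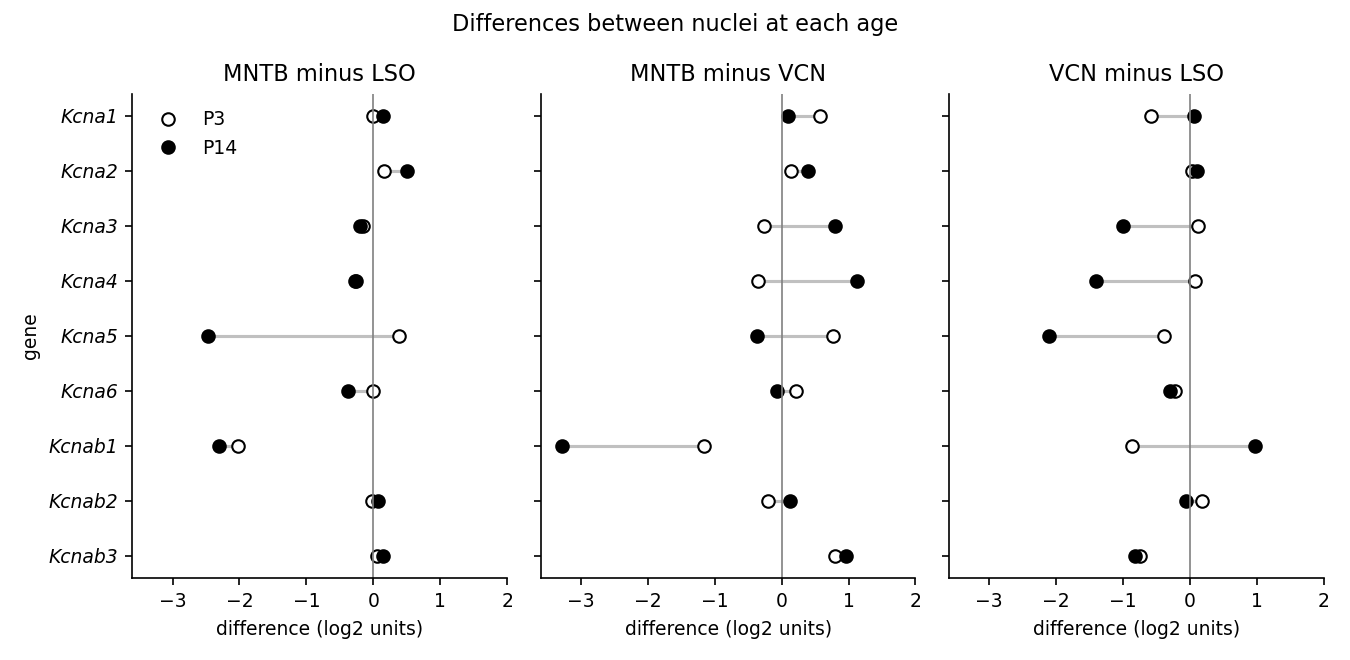
Difference between nuclei (x axis, log2 units) for each member gene (y axis) at P3 (open) and P14 (filled), 1 array per nucleus and age. Kcnab1 lies left of 0 in MNTB against LSO and against VCN at both ages. Kcnab3 keeps its difference of VCN from the other nuclei in the probe set shown. Kcna3 and Kcna4 differ between VCN and the other nuclei mainly at P14.

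Members were also set against each other by the root mean square difference of their values over the 6 arrays, after each gene was centred on its own mean; this is a description, since the genes share the arrays. The closest pair was Kcna3 and Kcna4, at 0.16 log2 units, and 0.0849% of tested genes were nearer to Kcna3 than Kcna4 was. Both were lowest on the VCN array of P14, the one with high Ttr and Gabra6. They stood there at 5.02 and 6.59, and at no less than 5.82 and 7.72 on the other arrays. Neither passed between ages. Next came Kcna2 with Kcnab2 (0.34), Kcna1 with Kcnab2 (0.38) and Kcna1 with Kcnab3 (0.39), and Kcna1 and Kcna2 stood at 0.61. Of tested genes, 7.46% were nearer to Kcna2 than Kcnab2 was. For Kcna1, 0.780% were nearer than Kcnab2, 0.849% nearer than Kcnab3 and 3.40% nearer than Kcna2. Among all tested genes the pattern nearest to Kcna1 was that of Inf2 (0.10), followed by Fgf1 (0.11) and Frmd8 (0.15), all of them lowest in VCN at P3. Nearest to Kcna2 were Fam102a (0.07), Tmem151a (0.08) and Car14 (0.09), and nearest to Kcnab2 were B3gnt2 (0.06), Spg20 (0.08) and Rnf13 (0.09). Kcnab3 had Igsf1 (0.18), Itgb3 (0.20) and Sema3d (0.21). The patterns nearest to Kcnab1 differed more by this measure, which is not scaled to the size of a gene's changes. Tcim was at 0.45, and Sel1l3 and Tpbgl were at 0.71 and 0.72. Their Pearson correlations with Kcnab1 over the 6 arrays were 0.96, 0.97 and 0.93. Tcim stood at 6.14, 6.63 and 5.14 in VCN, LSO and MNTB at P3 and at 8.89, 7.96 and 6.88 at P14, in the same order of nuclei as Kcnab1 at each age.

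Genes of proteins that bind Kv1 channels or place them in the axon moved both ways with age. Only RNA was measured. Of 22 genes on the list of partners, 19 had a probe set and were tested, 8 rose and 6 fell, beside 23.4% and 17.7% of all tested genes, with a median of 0.06 beside 0.03. The other listed genes were not analysed here. The LGI genes encode leucine-rich secreted ligands that bind ADAM22 and its relatives beside Kv1 channels. Of these genes, Lgi3 rose by 1.99 ± 0.10 (adjusted p = 0.000378, limma). It stood at 9.32, 9.68 and 9.58 in VCN, LSO and MNTB at P3 and at 11.51, 11.49 and 11.54 at P14. Its other probe sets rose by 1.53 and 2.64. Lgi4 and Lgi2 rose by 0.70 and 0.52, and Lgi1, mutated in an epilepsy with auditory features, was at 0.06 (adjusted p = 0.694), while its second probe set rose by 0.38 (adjusted p = 0.0435 in the fit of every probe set, limma). Of the ADAM receptor genes, Adam23 rose by 1.16 and Adam22 by 0.41, and Adam11 was at 0.14 (adjusted p = 0.470, limma).

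Genes of partners at the juxtaparanode, the axon stretch beside the node where Kv1 channels gather under myelin, went both ways. Cntnap2, the gene of the membrane protein Caspr2 that holds Kv1 channels there, fell by 0.77 ± 0.08 (adjusted p = 0.00141, limma), from 11.41, 11.41 and 11.35 to 10.50, 10.62 and 10.72. The P14 values were all below those of P3, and its other probe sets were at -0.53 and -0.51. Cntn2, the partner of Caspr2, had -0.42 ± 0.13 (adjusted p = 0.0429), a call lost in each of the 6 fits without 1 array (highest adjusted p = 0.163), while Epb41l3, which links Caspr2 to the cytoskeleton, rose by 0.54. Among genes of scaffold proteins with PDZ domains, Dlg1 rose by 1.11, and Dlg4, Cask and Dlg3 fell by 0.76, 0.69 and 0.49. Dlg2, the gene of PSD-93, was at -0.07 (adjusted p = 0.582, limma). Cask probe set 1422518_at was at -0.17 and did not pass (adjusted p = 0.206 in the fit of every probe set, limma). The other Cask probe sets were at -0.59 and -0.77. Of transport partners Kif5b rose by 0.58, Kif3a fell by 0.42, and Mapre1 was at -0.16 (adjusted p = 0.120; with the median over its probe sets, -0.46 and adjusted p = 0.00717). Kcna7, an alpha subunit gene outside the set, was at -0.15 (adjusted p = 0.420). Between ages, leaving out either array of a nucleus gives the same estimate, so the fits below come in pairs. Of the 14 calls, 6 (Lgi3, Adam23, Dlg1, Epb41l3, Cask and Cntnap2) passed in all 6 fits without 1 array. Of the others, Dlg3 was lost without an LSO or MNTB array (highest adjusted p = 0.200, at -0.33), Adam22, Lgi2, Dlg4, Kif3a and Kif5b without an MNTB array (0.0524, 0.0724, 0.0847, 0.0634 and 0.0595 at most) and Lgi4 without an LSO array (0.0603). Dlg3 also did not pass with no filter on low values (0.0573), no intensity trend in the variance prior (0.0544) or no nucleus term (0.0725), and Lgi2 with no intensity trend (0.0549). Cntn2 did not pass with no filter (0.0576), with arrays centred on their medians (0.0513), with the median over its probe sets (0.104) or with no nucleus term (0.397). For the nuclei, 0 of 19 partners passed in any of the 3 contrasts (3, 3 and 2 at an unadjusted p under 0.05, beside 6.80%, 9.53% and 8.98% of all tested genes).

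**Figure D4:**
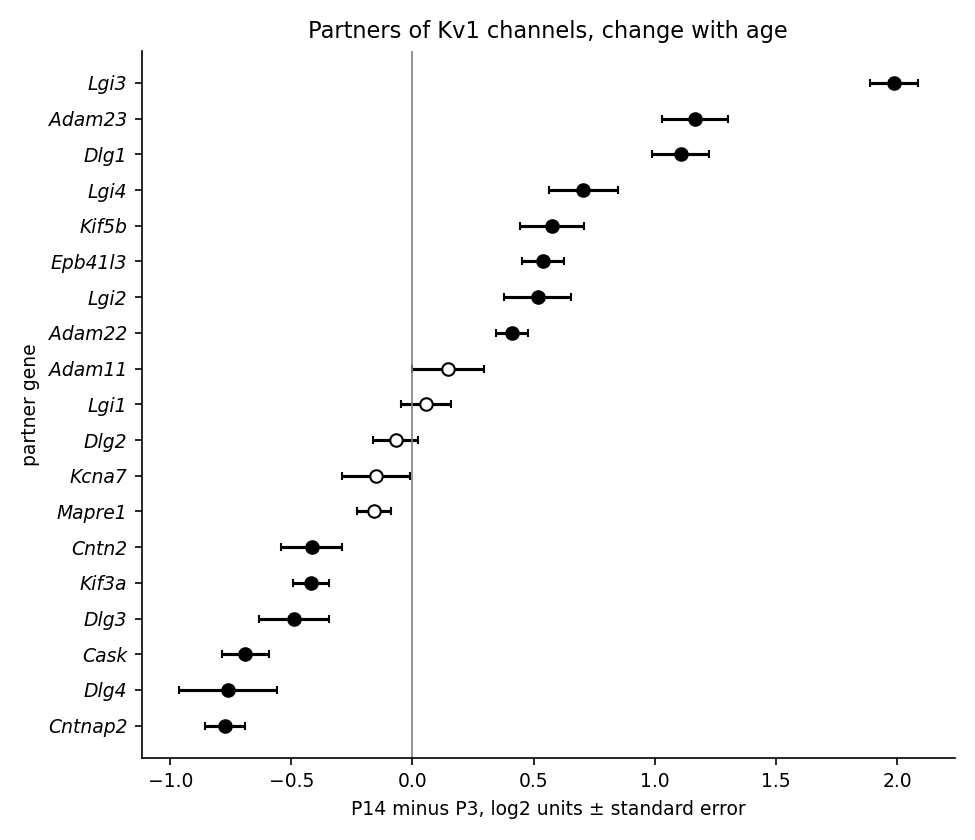
Change between P3 and P14 (x axis, log2 units, with the moderated standard error of the fit) for the 19 tested partner genes (y axis), filled where the adjusted p was under 0.05. Lgi3, at 1.99, lies farthest to the right and Cntnap2, at -0.77, farthest to the left.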

How the data were processed

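Each array gave 1 log2 value per probe set, as deposited by the authors. The submitters' processing notes name RMA, without a version. Probe sets were named from the platform annotation, and those naming 1 gene were kept. The probe set with the highest mean over 6 arrays stood for a gene, and genes whose mean reached 5.57 (40% of all probe sets lie lower) were tested (12958). Limma 3.58.1 in R 4.3.3 fitted age and nucleus as additive terms, which pairs the ages by nucleus, with Benjamini-Hochberg adjustment over all tested genes and a threshold of 0.05. Each gene had 2 residual degrees of freedom, and limma moderated its variance with a prior of 3.95 degrees of freedom from all tested genes. The standard errors given are the moderated ones. The labels give no scan dates and do not say whether the same animals gave all nuclei at an age. The steps were tested on simulated data. Members, partner genes and marker lists were chosen with earlier results of these data known. All members and the 19 tested partners are named, with the 3 nearest patterns of each member that rose. The alternatives were other filters on low values, a floor under low values, a variance prior without an intensity trend, centring of arrays on their medians, a further quantile normalization, keeping probe sets whose names end in _x_at, a median over each gene's probe sets, the model without nucleus, and leaving out each array. A fit of every probe set was added after seeing the data.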

Additional observations from a re-analysis of the deposited data

Results flagged for a closer look

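Kcna5 was 1.94 log2 units higher at P14 than at P3 in LSO and differed by -0.91 in MNTB, so that the 2 nuclei moved opposite ways with 1 array each. The difference between nuclei was not tested.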

How the results depend on the processing

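With 1 array per nucleus and age, no result has a repeat of its own. Over 468 member values under the alternatives, 437 kept their direction and side of the threshold, 24 reversed, 5 newly passed and 2 no longer passed. The 2 were those of Kcnab1 between ages: without the replicate block (no nucleus term; adjusted p = 0.143, limma) and in its second probe set. Without that block 4 members and 5074 genes passed between ages. Other filters, the floor, keeping _x_at names, no intensity trend and no nucleus term left each tested member's estimate unchanged and could move only its p-value. The 437 values also include nucleus contrasts, in which 0 of 8 members passed in the main fit. The tally is therefore a weak check. Between ages, leaving out either array of a nucleus drops that nucleus from the difference and gives the same estimate. Leaving out 1 array gave 5 members in each fit between ages and 0 to 1 in each nucleus contrast. Over all genes it gave 3142 to 4710 calls between ages, 4 to 99 for MNTB minus LSO, 17 to 215 for MNTB minus VCN and 4 to 159 for VCN minus LSO; the highest nucleus counts came without a VCN array. A filter at the 60th percentile gave 51 for MNTB minus VCN and 29 for VCN minus LSO.

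With a median over each gene's probe sets, 5 small values turned: Kcna1 to -0.0042 (MNTB minus LSO), Kcnab2 to -0.018 (MNTB minus LSO), 0.062 (MNTB minus VCN) and -0.080 (VCN minus LSO), and Dlg2 to 0.073 between ages. Further quantile normalization turned Lgi1 to -0.022 between ages. The cause was not tested. Leaving out 1 array moved the following across 0. For MNTB minus LSO, Kcna1 ranged from -0.13 to 0.27, Kcna3 from -0.46 to 0.12, Kcna4 from -0.64 to 0.10 and Kcnab2 from -0.087 to 0.12. For MNTB minus VCN, Kcna3 ranged from -0.28 to 0.81, Kcna4 from -0.35 to 1.13, Kcna6 from -0.088 to 0.23 and Kcnab2 from -0.18 to 0.10. For VCN minus LSO, Kcna1 ranged from -0.55 to 0.023, Kcna2 from -0.037 to 0.17, Kcna3 from -0.98 to 0.11, Kcna4 from -1.40 to 0.081, Kcnab1 from -0.94 to 1.04 and Kcnab2 from -0.084 to 0.20. Kcna5, fitted only with no filter on low values (adjusted p = 0.593, limma), ranged from -0.34 to 1.08 between ages.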
